A study of Mus musculus with 68 samples.

Results

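The ribosome biogenesis genes described here are 40 protein-coding mouse genes, chosen by symbol from the 56748 genes of the count table. They build ribosomes but are not part of the finished particle. Their RNA was followed in heart, lung, kidney and liver of wild-type C57BL/6J mice, all female and 10 weeks old. In each organ there were 4 libraries of mice given Egf at 1 mg/kg in saline into the retro-orbital sinus and killed after 2 h, and 4 killed after 6 h. At each of these times there were also 3 libraries of mice given the saline vehicle alone, and there were 3 libraries of mice that received nothing. The 68 libraries of 20 groups were made from polyadenylated RNA of whole organs, so fewer cells of a type and less RNA per cell cannot be told apart. All injections were given under anesthesia. The labels count 3 untreated mice in all, and for the injected groups they do not say whether the 4 organs came from the same mice.

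Ribosomes are assembled in the nucleolus. RNA polymerase I makes a long precursor of the ribosomal RNAs, small nucleolar ribonucleoproteins (snoRNPs) modify it, and assembly factors fold and cleave it into the small and the large subunit around the ribosomal proteins. Egf binds the receptor Egfr, which hepatocytes carry in abundance, and growth signals are known to raise the genes of this pathway, many of them through the transcription factor Myc. The 40 genes were placed in 4 roles. These are 10 genes of the snoRNPs and the nucleolar phosphoproteins, 4 of RNA polymerase I and its partners, 14 of small subunit assembly and 12 of large subunit assembly.

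The sequences before the start sites of the 4 genes that answered most clearly to Egf in liver at 2 h show what their promoters look like. Each is the stretch of 250 bases that ends just before the start, from RefSeq on build GRCm38.p6, read along the gene's strand, which is the plus strand in all 4. Capitals mark a TATA box (TATAAA) or an Ets core (CCGGAAG), both searched on both strands; in Ppan, 2 overlapping TATA matches on opposite strands give 1 run of 8 capitals. The positions are chr1:59684756-59685005 for Nop58, chr9:20887925-20888174 for Ppan, chr9:106477059-106477308 for Rrp9 and chr8:107056627-107056876 for Nip7.
Nop58: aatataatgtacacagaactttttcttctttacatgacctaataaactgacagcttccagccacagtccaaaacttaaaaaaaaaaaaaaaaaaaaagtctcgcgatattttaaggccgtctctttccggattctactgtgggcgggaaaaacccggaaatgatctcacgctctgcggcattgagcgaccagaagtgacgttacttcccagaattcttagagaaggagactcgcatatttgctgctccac
Ppan: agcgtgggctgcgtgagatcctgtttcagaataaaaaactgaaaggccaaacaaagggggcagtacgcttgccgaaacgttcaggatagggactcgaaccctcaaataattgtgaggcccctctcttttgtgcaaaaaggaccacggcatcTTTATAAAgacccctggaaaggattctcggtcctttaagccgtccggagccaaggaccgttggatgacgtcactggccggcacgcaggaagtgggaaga
Rrp9: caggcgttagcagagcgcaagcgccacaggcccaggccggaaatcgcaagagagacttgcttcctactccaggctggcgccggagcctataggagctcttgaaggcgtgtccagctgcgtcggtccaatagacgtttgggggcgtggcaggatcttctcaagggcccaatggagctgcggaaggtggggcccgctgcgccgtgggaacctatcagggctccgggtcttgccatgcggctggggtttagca
Nip7: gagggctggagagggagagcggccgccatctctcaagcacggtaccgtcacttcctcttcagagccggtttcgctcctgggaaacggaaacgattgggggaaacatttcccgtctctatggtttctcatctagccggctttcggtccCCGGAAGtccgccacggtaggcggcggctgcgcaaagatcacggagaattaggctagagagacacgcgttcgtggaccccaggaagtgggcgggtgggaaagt

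Of the 40 genes, 35 had a promoter in the RefSeq table; Fbl, Bop1, Rrs1, Npm1 and Rrp12 had none there. The Ets core was found in the 250 bases before the start of 9 of the 35 genes (25.7%), against 7.83% of all 27025 genes with a promoter. It was also found there in 26 of 74 other ribosome assembly genes with a promoter (35.1%) and in 18 of 58 genes for cytosolic ribosomal proteins (31%). The TATA box was found there in 3 of the 35 (8.57%), against 14.3% of all genes. The E-box CACGTG, the letters that Myc and related factors bind, was found in the 250 bases before the start of 2 of the 35 (5.71%), against 6.86% of all genes. In the first 50 bases after the start it was found in 8 of the 35 (22.9%), against 1.28% of all genes. Of the 74 other ribosome assembly genes, 6 (8.11%) held it in these 50 bases, and of the 58 ribosomal protein genes none did. These are matches of letters and not measured binding. The 8 matches are shown with up to 10 bases on either side, the E-box in capitals, read along the gene's strand from GRCm38.p6.
Mybbp1a, chr11:72441357-72441376, plus strand: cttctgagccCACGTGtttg
Utp4, chr8:106893645-106893670, plus strand: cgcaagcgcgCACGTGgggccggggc
Utp20, chr10:88826765-88826787, minus strand: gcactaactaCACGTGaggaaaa
Wdr43, chr17:71616222-71616247, plus strand: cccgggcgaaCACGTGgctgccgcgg
Ltv1, chr10:13193094-13193119, minus strand: cctgtggaccCACGTGtggagctgcc
Pno1, chr11:17211540-17211562, minus strand: tacaaccacgCACGTGttcctct
Tsr1, chr11:74898094-74898119, plus strand: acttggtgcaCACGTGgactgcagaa
Pes1, chr11:3963967-3963992, plus strand: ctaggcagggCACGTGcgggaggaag

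Library totals ran from 13271813 to 24972005 counted reads, and all 40 genes passed the filter on low counts in every organ. Libraries of a group had Pearson correlations of 0.9235 to 0.98637, and no pair of libraries held the same counts. Markers of another of the 4 organs reached at least 500 CPM, and at least 10 times their median in that organ, in 7 heart libraries (vehicle 2 h replicate 1, Egf 6 h replicates 1 and 3, vehicle 6 h replicate 2 and all 3 untreated) and in lung Egf 6 h replicate 3. No Egf heart at 2 h met this rule. Hepatocyte markers there still summed to 84.2 to 10100 CPM, against 76.2 to 119 CPM in vehicle hearts at 2 h. Fits without the libraries carrying another organ kept all Egf hearts at 2 h. In liver, adrenal markers summed to 180 CPM in Egf 2 h replicate 1, against 0.658 to 6.25 CPM in the other 16 libraries. In heart Egf 6 h replicate 4, T cell markers summed to 244 CPM and markers of dividing cells to 132 CPM, against at most 17.2 and 23.2 CPM in the other heart libraries. In kidney, adrenal markers summed to 22.7, 62.9 and 23.6 CPM in Egf 2 h replicates 1, 3 and 4, against 1.52 to 3.09 CPM in the other 14 libraries. The share of reads from 18S ribosomal RNA was 0.0126% in liver vehicle 2 h replicate 2, against 1.51% to 3.47% in the other liver libraries. Markers of the organ itself were high in its own libraries, for example hepatocyte markers at 109000 to 142000 CPM in liver. Levels below are CPM, the counts of a gene scaled to a common library size within the organ, changes are log2 fold changes with their standard error (SE), and a gene was called where edgeR's quasi-likelihood test gave a Benjamini-Hochberg adjusted p under 0.05 over all genes tested in the organ. Each p-value weighs a difference against the spread between these libraries, estimated over all groups of the fit.

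In liver 2 h after Egf, 6 of the 40 genes rose above vehicle and none fell (edgeR's quasi-likelihood test, Benjamini-Hochberg adjusted). Among all 13592 genes tested, 1.95% rose and 1.97% fell. The 6 genes came from 3 of the 4 roles: Nop58 and Rrp9 of the snoRNPs, Heatr1 and Utp4 of small subunit assembly, and Ppan and Nip7 of large subunit assembly. The median log2 change of the 40 was 0.22, against -0.02 for all genes, and 30 of them (75%) were above 0, against 47.4% of all genes. At an unadjusted p under 0.05, 12 of the 40 were higher (5.96% of all genes) and 1 was lower (8.76%).

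Nop58, a core protein of the snoRNPs that methylate ribosomal RNA, stood at 24.1, 32.3, 42.4 and 35.6 CPM in Egf livers at 2 h, against 13.3, 18.5 and 11.1 CPM in vehicle livers. Every Egf library lay above every vehicle library, and the untreated livers, at 10.1, 9.98 and 12 CPM, lay near the vehicle ones. The log2 change was 1.23 ± 0.21, or 2.35-fold, with an adjusted p of 0.0013 by edgeR's quasi-likelihood test with Benjamini-Hochberg adjustment. Nop58 (ENSMUSG00000026020) lies on the plus strand of chromosome 1 from 59724130 to 59758203 on build mm39.

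Ppan, a factor of large subunit assembly, showed the largest change of the 40 genes. It stood at 14, 17.9, 17.1 and 15.4 CPM in Egf livers, against 5.74, 7.61 and 4.82 CPM in vehicle livers. The groups did not overlap, and the log2 change was 1.41 ± 0.26 with an adjusted p of 0.00316 by the same edgeR test. Untreated livers held 5.56, 5.78 and 8.05 CPM.

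Rrp9, which binds the U3 snoRNA needed for the first cuts of the precursor, stood at 12.2, 13.1, 10.6 and 8.92 CPM in Egf livers, against 4.38, 6.36 and 6 CPM in vehicle livers. Its log2 change was 1.00 ± 0.20, with an adjusted p of 0.00534 by edgeR. Nip7, a late factor of the large subunit, stood at 33, 32.1, 26 and 28.3 CPM in Egf livers, against 14.6, 19.8 and 13.7 CPM in vehicle livers. Its log2 change was 0.89 ± 0.18, with an adjusted p of 0.00567. In both genes the lowest Egf library was above the highest vehicle library.

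Heatr1 and Utp4 belong to the complex that couples transcription of the precursor to its processing. Heatr1 had 19.7, 22.9, 23 and 21.3 CPM in Egf livers, against 12.4, 16.7 and 10.3 CPM in vehicle livers, a log2 change of 0.73 ± 0.18 (edgeR adjusted p = 0.0237). Utp4 had 24.3, 24.2, 26.1 and 26.6 CPM in Egf livers, against 17.4, 17.5 and 15.5 CPM in vehicle livers, a log2 change of 0.59 ± 0.16 (edgeR adjusted p = 0.0374). Neither gene's groups overlapped, but these are the weaker calls. Utp4 no longer passed when any 1 of the 7 libraries was left out or when genes were not filtered, with a log2 change of 0.61 without the filter. Heatr1 no longer passed without Egf replicate 2 or 3 or without vehicle replicate 1 or 3. Nop58, Ppan, Rrp9 and Nip7 passed with each library left out in turn, among them the Egf library with adrenal markers and the vehicle library with few 18S reads.

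**Figure D1:**
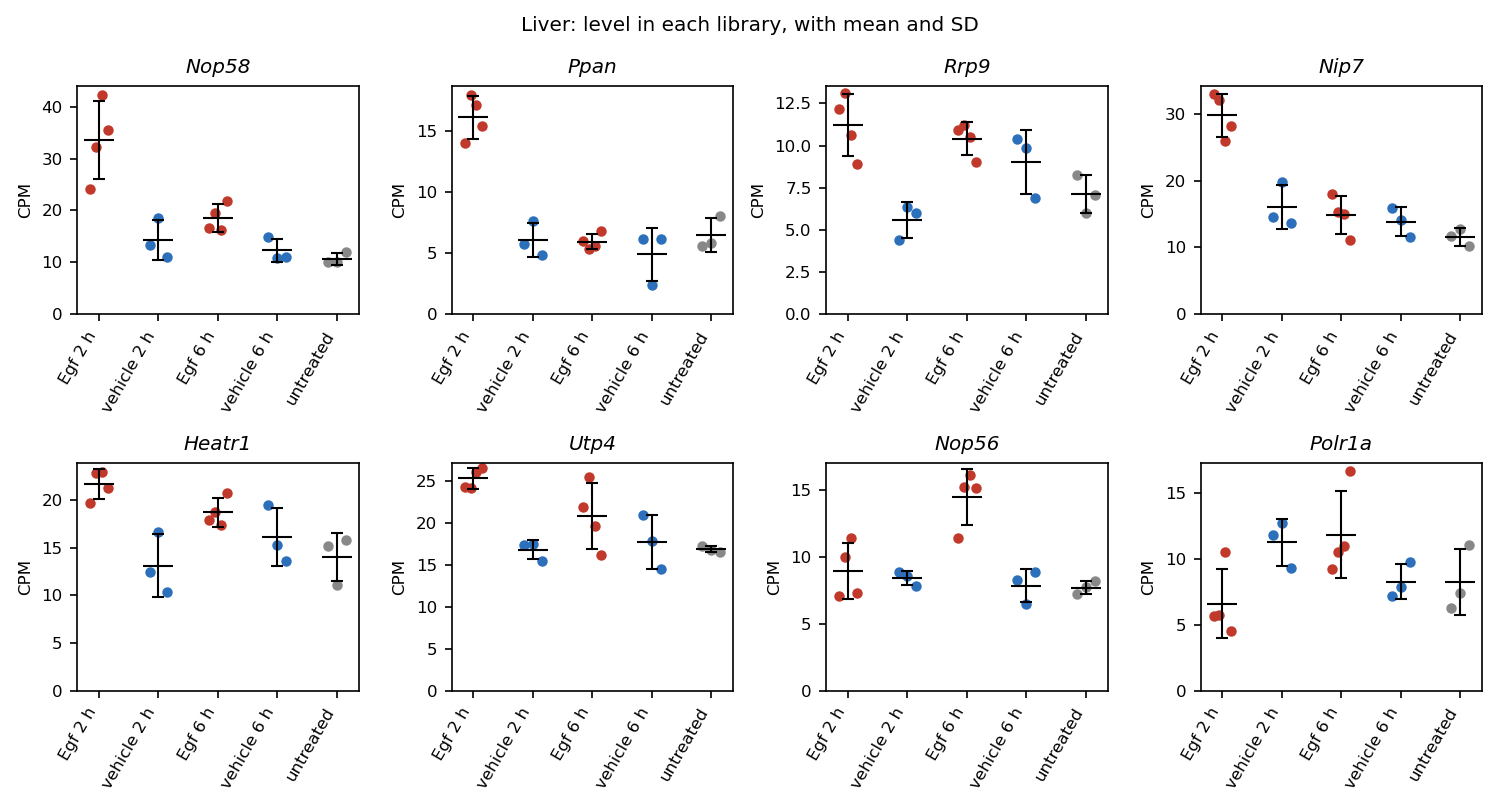
Level in CPM (vertical axis, from 0) of 8 genes in each liver library (points), with the mean and SD of the group (bars), for Egf and vehicle at 2 h, Egf and vehicle at 6 h, and untreated mice. In Nop58, Ppan, Rrp9, Nip7, Heatr1 and Utp4 the 4 Egf libraries at 2 h lie above the 3 vehicle libraries; Nop56 is highest in the Egf livers at 6 h, and Polr1a is low in 3 of the 4 Egf livers at 2 h.

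The other 34 genes did not pass in liver at 2 h. Among them, Noc4l of small subunit assembly had a log2 change of 0.69 (edgeR adjusted p = 0.0724) and Nob1, the nuclease that trims the end of the small subunit's RNA, 0.63 (adjusted p = 0.129). The groups' libraries did not overlap in 10 of the 40 genes with Egf higher (7.04% of all genes) and in 2 with Egf lower (9% of all genes). The 2 were Npm1 and Ncl, abundant nucleolar phosphoproteins, with 65.3 to 82.2 CPM in Egf livers against 83.9 to 94.6 CPM in vehicle livers for Npm1. For Ncl they had 29.7 to 48.3 CPM in Egf livers, against 48.4 to 55.8 CPM in vehicle livers. The lowest change of the 40 was that of Polr1a, the largest subunit of RNA polymerase I, at -0.77 ± 0.27. It had 5.65, 5.77, 10.5 and 4.52 CPM in Egf livers, against 11.8, 12.7 and 9.28 CPM in vehicle livers, with an edgeR adjusted p of 0.145. By role, the median change was 0.13 for the snoRNP genes, -0.24 for RNA polymerase I and its partners, 0.26 for small subunit genes and 0.21 for large subunit genes.

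Neutrophil markers summed to 2.91 to 9.28 CPM in Egf livers at 2 h, against 1.17 to 2.37 CPM in vehicle livers, with 1 of the 9 markers at 0 in every liver library. Hepatocyte markers overlapped between the groups, at 111000 to 141000 CPM in Egf livers and 119000 to 128000 CPM in vehicle livers. Markers of dividing cells summed to 6.2 to 9.52 CPM in Egf livers and 8.09 to 14.8 CPM in vehicle livers. The part of these cells in the changes of the 40 genes was not tested.

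In liver at 6 h none of the 40 genes passed, and only 12 genes of all passed as higher (0.0883%) and none as lower (edgeR's quasi-likelihood test with Benjamini-Hochberg adjustment). At an unadjusted p under 0.05, 14 of the 40 were higher (5.28% of all genes) and none was lower, and DESeq2 called 1, Nop56. The median log2 change was 0.33, against 0.01 for all genes, and 36 of the 40 (90%) were above 0, against 51.6% of all genes. Nop56, the partner of Nop58 in the methylating snoRNPs, had the smallest p. It had 11.4, 15.2, 16.1 and 15.1 CPM in Egf livers, against 8.25, 6.45 and 8.82 CPM in vehicle livers, a log2 change of 0.88 ± 0.19 (adjusted p = 0.119). It passed when Egf replicate 1 was left out. Its groups did not overlap, which held with Egf higher for 7 of the 40 genes (4.52% of all genes). Nop56 shares its locus with Idh3b on the opposite strand, which is far more abundant, and the libraries do not keep the strand.

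Bysl, a small subunit factor, had 31.7, 32, 25.5 and 27.5 CPM in Egf livers at 6 h, against 25.7, 18.5 and 19.8 CPM in vehicle livers, a log2 change of 0.45 ± 0.15 that did not pass (edgeR adjusted p = 0.41). Its lowest Egf library lay just under its highest vehicle library. Nop58 had 16.6, 19.5, 16.2 and 21.8 CPM in Egf livers, against 14.9, 10.9 and 11.1 CPM in vehicle livers, a log2 change of 0.59 ± 0.20 that did not pass (adjusted p = 0.438), though its groups did not overlap. Ppan and Nip7 stood near vehicle at 6 h: Ppan had 5.96, 5.35, 5.6 and 6.84 CPM in Egf livers against 6.16, 2.36 and 6.12 CPM in vehicle livers, and Nip7 had 18, 15.3, 15 and 11.2 CPM in Egf livers against 15.9, 14.2 and 11.6 CPM in vehicle livers. RNA polymerase I and its partners had the highest median of the roles at this time, at 0.57.

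The 2 times were compared within liver by testing whether the Egf effect at 6 h differed from that at 2 h. None of the 40 genes passed in edgeR or DESeq2, against 0.574% of all genes with a more positive effect at 6 h and 0.456% with a more negative one in edgeR. Without adjustment, 5 of the 40 had a p under 0.05 with a more positive effect (9.14% of all genes) and 4 with a more negative one (4.94%). The smallest p belonged to Polr1a, whose effect at 6 h exceeded that at 2 h by 1.29 ± 0.39 on the log2 scale (edgeR adjusted p = 0.126). It passed when Egf 2 h replicate 3 was left out, at 1.6. Nip7 (-0.80 ± 0.25, adjusted p = 0.147) and Ppan (-1.13 ± 0.36, adjusted p = 0.157) followed, with smaller effects at 6 h than at 2 h; Ppan passed when vehicle 6 h replicate 2 was left out. For this difference the 20 longer genes of the 40 had a median of 0.25 and the 20 shorter ones -0.06, against 0.19 and -0.12 for all longer and all shorter genes. Of the 40 genes, 27 were above 0 at both times, 17 had the larger change at 2 h and 22 at 6 h.

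**Figure D2:**
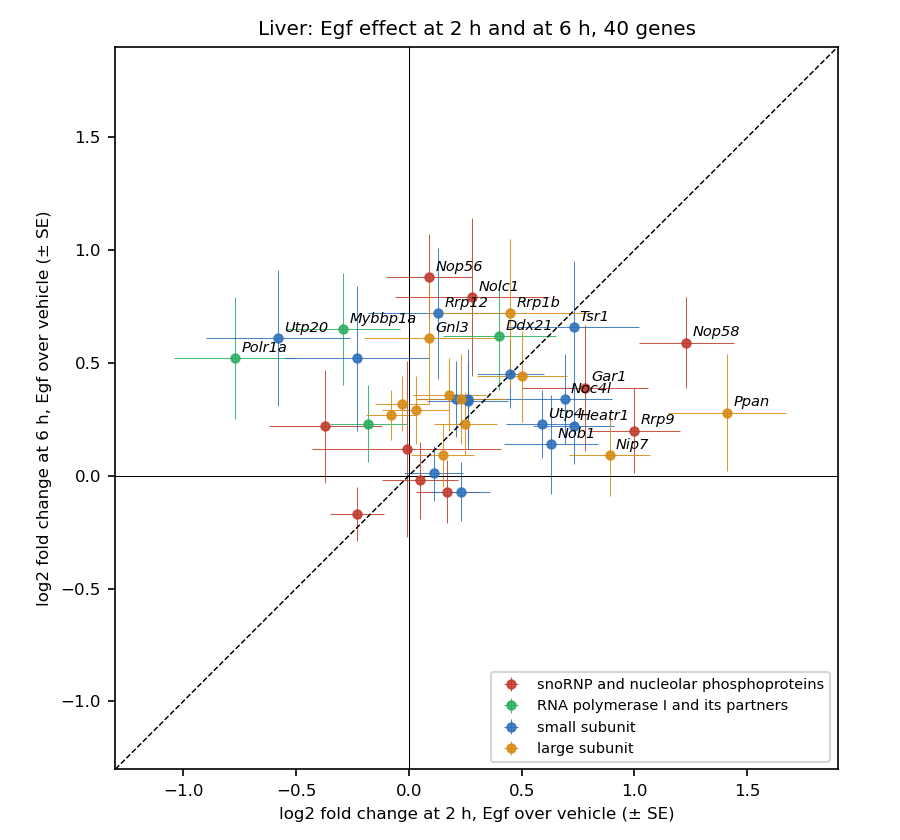
Log2 fold change of Egf over vehicle in liver at 2 h (horizontal axis) and at 6 h (vertical axis) for the 40 genes, coloured by role, with SE as bars and the line of equal change dashed. Nop58, Ppan, Rrp9 and Nip7 lie to the right at 2 h, whereas Polr1a and Utp20 lie below 0 at 2 h and above 0 at 6 h.

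The Egf livers themselves were also compared between the times, a comparison that shares its libraries with the preceding ones and holds the time of day and of handling as well. At 6 h, 15 of the 40 genes were higher than at 2 h and 6 were lower (edgeR's quasi-likelihood test, Benjamini-Hochberg adjusted), against 19.8% and 15.7% of all genes. Both shares of the background are large, so that the 6 lower genes (15% of the 40) are close to it, and 68 of 78 ribosomal protein genes were lower at 6 h, with a median of -0.67. Markers of dividing cells summed to 10.4 to 21.2 CPM in Egf livers at 6 h, against 6.2 to 9.52 CPM at 2 h, and neutrophil markers to 0.509 to 2.32 CPM at 6 h, against 2.91 to 9.28 CPM at 2 h, both without overlap. The 20 longer genes of the 40 had a median change of 0.45 and the 20 shorter ones -0.03, against 0.25 and -0.20 for all longer and all shorter genes. The part of these measures in the changes was not tested. The higher genes included 3 of the 4 of RNA polymerase I and its partners. Polr1b, the second largest subunit of the polymerase, had 16.8, 18.1, 18.2 and 18.4 CPM in Egf livers at 6 h, against 7.53, 9.75, 10.2 and 7.79 CPM at 2 h (log2 change 1.02 ± 0.16, adjusted p = 0.00014). Mybbp1a, a nucleolar regulator of transcription, rose by 1.38 ± 0.24 (adjusted p = 0.000339) and Polr1a by 0.85 ± 0.25 (adjusted p = 0.0159).

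Pes1, a scaffold of large subunit assembly, had the smallest p of the 40 in this comparison. It had 30.7, 32.2, 31.6 and 31.5 CPM in Egf livers at 6 h, against 20.1, 18.3, 20 and 18.8 CPM at 2 h, a log2 change of 0.71 ± 0.10 (edgeR adjusted p = 6.42e-05). The libraries of each time lay close together and far from those of the other. Utp20, a large scaffold of the small subunit precursor, showed the largest rise, with 10.2, 11.1, 9.71 and 21.1 CPM at 6 h against 2.88, 3.14, 5.29 and 4.52 CPM at 2 h (log2 change 1.73 ± 0.29, adjusted p = 0.000317). Rrp12 (1.43), Ltv1 (0.67) and Nop14 (0.82) of small subunit assembly, Noc2l (0.53) and Wdr12 (0.38) of large subunit assembly, and Nop56 (0.69) and Dkc1 (1.29) of the snoRNPs were also higher at 6 h on the log2 scale. Nop14 and Wdr12 lost the call with 5 of the 8 libraries left out in turn, Polr1a without Egf 2 h replicate 1 or 4 or Egf 6 h replicate 4, and Dkc1 without Egf 6 h replicate 4.

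The 6 genes that were lower in Egf livers at 6 h than at 2 h included 3 of those that had risen over vehicle at 2 h. Both comparisons use the same Egf livers at 2 h, so this overlap is partly built in. The Egf effect itself did not pass as different between the times for any of the 40. Ppan was lower by 1.44 ± 0.23 (log2 change -1.44, edgeR adjusted p = 0.000222), Nip7 fell by 1.00 ± 0.16 on the log2 scale (adjusted p = 0.00022) and Nop58 one of -0.86 ± 0.18 (adjusted p = 0.00205). Nob1 (-0.95 ± 0.20), Rrs1 (-0.54 ± 0.18), a large subunit factor, and Pno1 (-0.43 ± 0.12), a partner of Nob1 on the small subunit, were the others. The libraries of the 2 times did not overlap in 6 of the 40 genes with 6 h lower (13.5% of all genes), which are these 6, and in 9 with 6 h higher (16.6%). Rrs1 lost the call without Egf 2 h replicate 2 or 4 or without Egf 6 h replicate 4.

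In vehicle livers none of the 40 genes passed between 6 h and 2 h, against 1.04% of all genes higher and 0.515% lower (edgeR). DESeq2 called 2, Polr1b and Pes1, and in edgeR 8 were higher (8% of all genes) and 1 lower (4.95%) at an unadjusted p under 0.05. Polr1b had 18.4, 13.6 and 13.9 CPM in vehicle livers at 6 h, against 10.6, 11 and 8.38 CPM at 2 h, a log2 change of 0.61 ± 0.18 (edgeR adjusted p = 0.11). Pes1 had 27.5, 24.6 and 26.4 CPM in vehicle livers at 6 h, against 20.5, 20.6 and 20 CPM at 2 h, a log2 change of 0.36 ± 0.12 (adjusted p = 0.149). Rrp9 had a log2 change of 0.69 ± 0.21 (adjusted p = 0.119).

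Vehicle livers were set against livers of untreated mice. This comparison holds saline, injection, anesthesia and handling together, and they cannot be told apart. None of the 40 genes passed at 2 h, against 0.0736% of all genes higher and 0.0809% lower in vehicle livers, or at 6 h, against 0.361% and 0.309% (edgeR). DESeq2 called none at either time. With no adjustment, 4 were higher (7.86% of all genes) and 1 lower (8.74%) at 2 h, and 4 were higher at 6 h (6.06%), at a p under 0.05. The smallest p at 2 h belonged to Npm1 (log2 change 0.35 ± 0.13, adjusted p = 0.244), Nip7 (0.47 ± 0.19, adjusted p = 0.261) and Dkc1 (-1.02 ± 0.43, adjusted p = 0.269). At 6 h they were Fbl, the enzyme of the methylating snoRNPs (0.45 ± 0.15, adjusted p = 0.213), Wdr12 (0.43 ± 0.15, adjusted p = 0.247) and Bysl (0.42 ± 0.16, adjusted p = 0.28).

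In lung none of the 40 genes passed between Egf and vehicle at 2 h, where 0.691% of all genes rose and 0.149% fell, or at 6 h, where no gene of all passed (edgeR's quasi-likelihood test, Benjamini-Hochberg adjusted). At an unadjusted p under 0.05, 10 of the 40 were higher at 2 h (4.73% of all genes) and 5 at 6 h (2.67%). The median log2 change was 0.11 at 2 h and 0.16 at 6 h, with 82.5% and 87.5% of the 40 above 0, against 49.8% and 50.5% of all genes. Hepatocyte markers summed to 438 to 3570 CPM in Egf lungs at 2 h, against 28.9 to 662 CPM in vehicle lungs. Neutrophil markers summed to 129 to 297 CPM there, against 88.9 to 144 CPM. The median with hepatocyte markers as a covariate is given at the end, and the part of neutrophils was not tested. Nop58 had 34.2, 30, 30.1 and 32.1 CPM in Egf lungs at 2 h, against 23.5, 20.4 and 24.6 CPM in vehicle lungs (log2 change 0.47 ± 0.13, adjusted p = 0.131). Nop2, a methyltransferase of the large subunit RNA, had 27.5, 30.1, 28.1 and 26.6 CPM in Egf lungs against 22.8, 24.3 and 19.1 CPM in vehicle lungs (0.35 ± 0.10, adjusted p = 0.153). Gnl3, a nucleolar GTPase also called nucleostemin, had 15.6, 12.4, 15.2 and 13.7 CPM in Egf lungs, against 9.68, 8.85 and 8.67 CPM in vehicle lungs (0.65 ± 0.19, adjusted p = 0.164).

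The groups did not overlap in any of these 3 genes, and did not overlap with Egf higher in 10 of the 40 (5.65% of all genes). DESeq2 called the same 3 genes and no other. At 6 h, Nop2 had 21, 21.4, 21.4 and 23.5 CPM in Egf lungs, against 17.7, 18 and 19 CPM in vehicle lungs, without overlap (0.26 ± 0.10, edgeR adjusted p = 0.902). Ltv1, an export factor of the small subunit, had 17.6, 21.1, 19.5 and 20.7 CPM in Egf lungs against 17, 12.9 and 18.3 CPM in vehicle lungs (0.30 ± 0.12, adjusted p = 0.902). Nop58 had 19.7, 21.8, 22.9 and 24.9 CPM in Egf lungs against 20.1, 14.2 and 19.4 CPM in vehicle lungs (0.32 ± 0.13, adjusted p = 0.902). The last 2 genes overlapped between the groups, and DESeq2 called none of the 40 at 6 h. The share of all genes without overlap is not given for lung at 6 h.

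The Egf effect in lung did not pass as different between 6 h and 2 h for any of the 40 genes, against 0.0119% of all genes more positive at 6 h and 0.0298% more negative. The smallest p belonged to Gnl3 (-0.70 ± 0.26, edgeR adjusted p = 0.679), Utp20 (0.54 ± 0.29, adjusted p = 0.946) and Ltv1 (0.30 ± 0.17, adjusted p = 0.95). Gnl3 alone had an unadjusted p under 0.05 with a smaller effect at 6 h (3.08% of all genes), and DESeq2 called none.

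The 2 times were also compared within Egf lungs and within vehicle lungs. In Egf lungs at 6 h 7 of the 40 were lower and none was higher, against 4.4% and 4.22% of all genes (edgeR), and 14 were lower at an unadjusted p under 0.05 (10.8%). The largest fall was that of Heatr1, which had 27.2, 22, 29.3 and 29.5 CPM in Egf lungs at 6 h, against 53.6, 47.4, 52.8 and 49.1 CPM at 2 h (log2 change -0.91 ± 0.12, adjusted p = 0.000201). In vehicle lungs Heatr1 alone passed, with 27.3, 21 and 27.1 CPM at 6 h, against 48.5, 46.1 and 40.4 CPM at 2 h (-0.84 ± 0.14, adjusted p = 0.0119), where 0.25% of all genes fell and 0.191% rose. Without adjustment, 11 of the 40 were lower in vehicle lungs at 6 h at a p under 0.05 (4.57% of all genes), and none was higher. Untreated lungs held 35.5, 42.9 and 45.9 CPM of Heatr1. The call in vehicle lungs was lost without vehicle 2 h replicate 1 and when only the 2 groups compared were fitted.

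Wdr43 (-0.43 ± 0.08, edgeR adjusted p = 0.00465), a partner of Heatr1 and Utp4, fell next in Egf lungs, followed by Nop58 (-0.50 ± 0.12, adjusted p = 0.0148), Nop2 (-0.36 ± 0.09, adjusted p = 0.0203), Nob1 (-0.41 ± 0.12, adjusted p = 0.0357), Gnl3 (-0.59 ± 0.17, adjusted p = 0.0408) and the helicase Ddx21 (-0.52 ± 0.15, adjusted p = 0.0416). The libraries of the 2 times did not overlap in 14 of the 40 genes with 6 h lower (8.01% of all genes), these 7 among them. The count was 3 when genes were not filtered and 11 with DESeq2. It dropped to 4 without lung Egf 6 h replicate 3, in which hepatocyte markers summed to 29000 CPM, and it ran from 3 to 6 over the 8 libraries left out in turn. Heatr1, Wdr43 and Nop58 kept their calls throughout, whereas Nop2, Nob1, Gnl3 and Ddx21 lost theirs without at least 3 of the 8 libraries each. The median of the 40 between 6 h and 2 h was -0.20 in Egf lungs, against 0.01 for all genes, and -0.23 in vehicle lungs, against 0.01.

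Vehicle lungs and untreated lungs differed in none of the 40 genes by edgeR, against 0.0656% of all genes higher and 0% lower in vehicle lungs at 2 h, and 0.0596% and 0.0417% at 6 h. By the unadjusted p, 2 were higher at 2 h (6.02% of all genes) and 5 lower at 6 h (5.11%), and DESeq2 called none at 2 h and 1, Heatr1, at 6 h. Pno1 (0.40 ± 0.16, edgeR adjusted p = 0.361), Nip7 (0.37 ± 0.17, adjusted p = 0.406) and Polr1b (0.27 ± 0.13, adjusted p = 0.428) came first at 2 h. Heatr1 (-0.72 ± 0.14, adjusted p = 0.0612), Nop2 (-0.30 ± 0.10, adjusted p = 0.393) and Bysl (-0.46 ± 0.17, adjusted p = 0.424) came first at 6 h. Heatr1 passed at 6 h when untreated replicate 1 was left out.

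In heart none of the 40 genes passed at 2 h, where 0.186% of all genes rose and 0.0256% fell after Egf, or at 6 h, where 0.0064% rose and 0.0064% fell (edgeR). DESeq2 called none at either time. At an unadjusted p under 0.05, 5 were higher at 2 h (4.03% of all genes), and 8 were higher (5.85%) and 1 lower (4.7%) at 6 h. The median log2 change was 0.13 at 2 h and 0.14 at 6 h, with 80% and 72.5% of the 40 above 0, against 46.5% and 52.5% of all genes. Tsr1, a GTPase-like factor of the small subunit, had 9.91, 10.3, 10.4 and 11.8 CPM in Egf hearts at 2 h, against 5.8, 7.06 and 8.74 CPM in vehicle hearts (0.56 ± 0.17, adjusted p = 0.45). Wdr43 had 25.1, 25.9, 23.1 and 24.1 CPM in Egf hearts against 18.5, 19.7 and 21.3 CPM in vehicle hearts (0.31 ± 0.10, adjusted p = 0.482). Ddx21, which unwinds RNA in the nucleolus, had 36.5, 32, 36.6 and 36.2 CPM in Egf hearts, against 24.9, 17.4 and 32.1 CPM in vehicle hearts (0.51 ± 0.18, adjusted p = 0.587).

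The groups did not overlap for Tsr1 and Wdr43, and overlapped for Ddx21. For heart the share of all genes whose groups did not overlap is not given, so these statements have no background. At 6 h, Utp20 had 13.8, 8.23, 10.7 and 12 CPM in Egf hearts, against 8.59, 5.17 and 6.93 CPM in vehicle hearts (0.70 ± 0.22, edgeR adjusted p = 0.466). Nop2 had 22.8, 18.5, 21.9 and 18.4 CPM in Egf hearts against 17.3, 14.1 and 16.2 CPM in vehicle hearts (0.36 ± 0.13, adjusted p = 0.466). Nolc1, a chaperone of snoRNPs, had 17.7, 12.5, 12.5 and 18.9 CPM in Egf hearts, against 12.5, 8.98 and 8.45 CPM in vehicle hearts (0.63 ± 0.22, adjusted p = 0.466). Without Egf replicate 4, which carried T cell markers, the changes were 0.66 for Utp20, 0.41 for Nop2 and 0.51 for Nolc1. The groups did not overlap for Nop2, met for Nolc1 at a gap smaller than the rounding shown, and overlapped for Utp20.

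Egf and vehicle hearts differed in other measures too. The share of 18S reads was 1.01% to 1.66% in Egf hearts at 2 h, against 0.537% to 0.803% in vehicle hearts, and reads of mitochondrial genes made up 12% to 16% in Egf hearts, against 17.3% to 20.1% in vehicle hearts. At 6 h the changes of the 40 genes followed gene length, with a Pearson correlation of 0.59 across the 40 genes, which are not independent. The 20 longer genes had a median change of 0.25 and the 20 shorter ones -0.01, against 0.11 and -0.09 for all longer and all shorter genes. In kidney at 6 h the correlation was 0.37, with medians of 0.21 for the longer and 0.12 for the shorter genes of the 40. In liver they were 0.33 and 0.32 at 6 h, and 0.12 and 0.26 at 2 h. Changes without Egf also went with length. For vehicle over untreated the correlation was -0.49 at 2 h and -0.58 at 6 h in heart, and -0.48 and -0.52 in lung. It was -0.2 and -0.26 in kidney, and -0.24 and -0.12 in liver. The part of these measures in the changes was not tested.

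In heart the Egf effect did not pass as different between 6 h and 2 h for any of the 40, against 0% of all genes more positive and 0.0128% more negative, with 1 gene more positive at an unadjusted p under 0.05 in edgeR (2.43% of all genes) and none by DESeq2. Utp20 came first (0.89 ± 0.31, adjusted p = 0.96), then Ncl (0.59 ± 0.31) and Rrp9 (-0.30 ± 0.17), both with an adjusted p of 0.96. Utp20 (0.63 ± 0.20, adjusted p = 0.171), Ncl (0.50 ± 0.20, adjusted p = 0.253) and Wdr74 (-0.32 ± 0.14, adjusted p = 0.299) came first between Egf hearts at 6 h and at 2 h, where 0.57% of all genes rose and 0.749% fell. None of the 40 passed there in edgeR or DESeq2, and by the unadjusted p 2 were higher (8.12% of all genes) and 1 lower (7.65%). Between vehicle hearts of the 2 times none of the 40 passed in edgeR or DESeq2 and none had an unadjusted p under 0.05, against 0.0192% of all genes that rose and 0.0192% that fell. Nop58 (-0.33 ± 0.16, adjusted p = 0.909), Nop56 (0.28 ± 0.15, adjusted p = 0.909) and Wdr74 (-0.25 ± 0.16, adjusted p = 0.92) came first.

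Of vehicle hearts against untreated hearts, the first at 2 h were Pno1 (0.32 ± 0.12, edgeR adjusted p = 0.233), Dkc1 (-0.75 ± 0.30, adjusted p = 0.258) and Nip7 (0.37 ± 0.17, adjusted p = 0.298). At 6 h they were Rrp9 (0.37 ± 0.13, adjusted p = 0.415), Pno1 (0.31 ± 0.12, adjusted p = 0.452) and Nob1 (0.29 ± 0.12, adjusted p = 0.485). None of the 40 passed in edgeR or DESeq2 at either time, against 0.0128% of all genes higher and 0% lower at 2 h and 0.0192% and 0% at 6 h. By the unadjusted p, 3 were higher (8.79% of all genes) and 1 lower (7.42%) at 2 h, and 4 were higher at 6 h (4.86%). All 3 untreated hearts carried markers of another organ.

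In kidney none of the 40 genes passed at 2 h, where 0.217% of all genes rose and 0.0383% fell after Egf, or at 6 h, where no gene of all passed (edgeR). DESeq2 called none of the 40 at either time, and 3 were higher at an unadjusted p under 0.05 at each time (3.99% of all genes at 2 h and 3.77% at 6 h). The median log2 change was 0.07 at 2 h and 0.17 at 6 h, with 80% and 85% of the 40 above 0, against 47.3% and 53.8% of all genes. Nop58 had 25.9, 26.1, 20.3 and 24.9 CPM in Egf kidneys at 2 h, against 19.1, 18.8 and 18.5 CPM in vehicle kidneys (0.37 ± 0.12, adjusted p = 0.328). Wdr43 had 29.6, 28.5, 22.6 and 27 CPM in Egf kidneys against 22.5, 21.4 and 20.9 CPM in vehicle kidneys (0.32 ± 0.11, adjusted p = 0.386). Gnl3 had 19.5, 19.3, 10.3 and 17.9 CPM in Egf kidneys, against 12.5, 11.1 and 13.4 CPM in vehicle kidneys (0.45 ± 0.18, adjusted p = 0.514).

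Nop58 and Wdr43 did not overlap between the groups, while Egf replicate 3 lay below all vehicle libraries for Gnl3, which passed when that library was left out (log2 change 0.62). That library had the highest adrenal markers of the kidneys, and the median of the 40 genes was 0.14 without it, against 0.07 with it. For kidney the share of all genes whose groups did not overlap is not given. At 6 h, Bysl had 21.3, 25.9, 21.3 and 23.6 CPM in Egf kidneys, against 18.7, 17.2 and 18.4 CPM in vehicle kidneys (0.35 ± 0.12, edgeR adjusted p = 0.607). Ltv1 had 17.3, 20.2, 17 and 18.1 CPM in Egf kidneys against 15.1, 12.7 and 16.1 CPM in vehicle kidneys (0.31 ± 0.13, adjusted p = 0.709). Nop58 had 19, 21.8, 17.2 and 17.4 CPM in Egf kidneys, against 17.7, 13.8 and 15.6 CPM in vehicle kidneys, and was the only one of the 3 whose groups overlapped (0.26 ± 0.12, adjusted p = 0.782).

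Between the times, 1 of the 40 genes was lower in Egf kidneys at 6 h and none was higher, against 2.7% and 4.39% of all genes. This was Nob1, with 15.7, 17, 14.8 and 15 CPM at 6 h against 22.1, 21.7, 17.6 and 23.5 CPM at 2 h (-0.44 ± 0.11, edgeR adjusted p = 0.0211). It lost the call without Egf 2 h replicate 4 or Egf 6 h replicate 4, when genes were not filtered, when only the groups compared were fitted and with hepatocyte markers as a covariate. Nop58 (-0.36 ± 0.11, adjusted p = 0.055) and Gnl3 (-0.55 ± 0.17, adjusted p = 0.0591) came next. Nob1 also had the smallest p between vehicle kidneys of the 2 times, at -0.42 ± 0.12, and did not pass there (adjusted p = 0.284).

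The remaining kidney comparisons called none of the 40 genes by edgeR or DESeq2. Between vehicle kidneys at 6 h and 2 h, 0.141% of all genes rose and 0.0383% fell, and 5 of the 40 were lower by the unadjusted p (3.31% of all genes). For vehicle over untreated kidneys the shares of all genes were 0.0128% higher and 0.0128% lower at 2 h, with 7 of the 40 higher by the unadjusted p (6.78%). At 6 h they were 0.147% higher and 0.0639% lower, with 1 of the 40 higher by the unadjusted p (2.84%). The Egf effect at 6 h minus that at 2 h passed for 0% of all genes as more positive and 0.0192% as more negative, with none of the 40 at an unadjusted p under 0.05. The first by p were Gar1 (-0.45 ± 0.16, adjusted p = 0.471) and Utp4 (-0.34 ± 0.13, adjusted p = 0.502) after Nob1 between vehicle kidneys of the 2 times. They were Bysl (0.39 ± 0.13, adjusted p = 0.281), Gar1 (0.46 ± 0.16, adjusted p = 0.29) and Utp20 (0.48 ± 0.17, adjusted p = 0.309) for vehicle over untreated at 2 h, and Nop16 (0.37 ± 0.14, adjusted p = 0.531), Nhp2 (0.31 ± 0.18, adjusted p = 0.807) and Nop56 (-0.30 ± 0.20) at 6 h. For the difference of the Egf effect between 6 h and 2 h they were Bysl (0.33 ± 0.17, adjusted p = 0.793), Polr1a (0.60 ± 0.34, adjusted p = 0.82) and Nhp2 (-0.40 ± 0.24, adjusted p = 0.836).

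**Figure D3:**
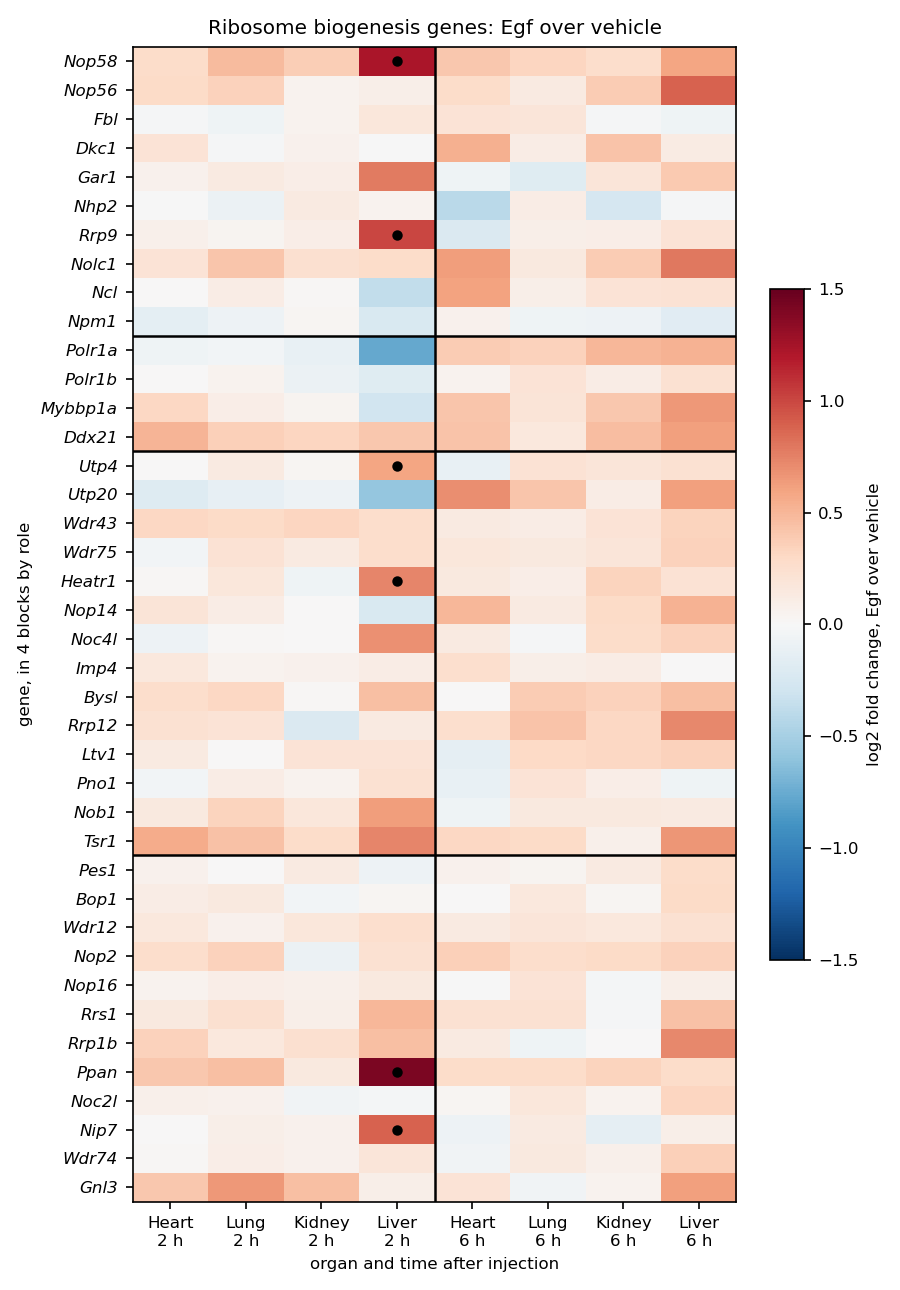
Log2 fold change of Egf over vehicle (colour) for the 40 genes (vertical axis, in 4 blocks by role) in 4 organs at 2 h and at 6 h (horizontal axis); black dots mark genes that passed in edgeR. The only dots are the 6 genes in liver at 2 h. Polr1a and Utp20 are below 0 in all 4 organs at 2 h and above 0 in all 4 at 6 h, without passing. How many of all genes show this pattern was not counted.

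The change after Egf was then compared across heart, lung, kidney and liver in 1 fit over all 68 libraries. At 2 h, 4 of the 40 genes passed, against 2.19% of the 18736 genes tested (edgeR's quasi-likelihood F test, Benjamini-Hochberg adjusted). They were Rrp9 (adjusted p = 0.00121), Nop58 (0.00931), Ppan (0.0362) and Nip7 (0.0425), each with the highest change in liver. Without the filter on low counts 2 of the 40 passed, and DESeq2 called 7. At 6 h none passed, against 0.048% of all genes. For Nop58 the log2 changes within the organs at 2 h were 1.23 ± 0.21 in liver, 0.47 ± 0.13 in lung, 0.37 ± 0.12 in kidney and 0.27 ± 0.15 in heart.

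Signs were counted across the organs whether or not a gene passed. At 2 h, 21 of the 40 genes were above 0 in all 4 organs, against 8.73% of the 12598 genes tested in all 4, and 10 were above 0 in 3. At 6 h, 23 were above 0 in all 4, against 20.8% of all genes, and 10 in 3. Polr1a and Utp20 were above 0 in none at 2 h. The share of all genes above 0 in 3 organs or in none was not counted, so these counts have no background. The organs of a group may share mice.

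**Figure D4:**
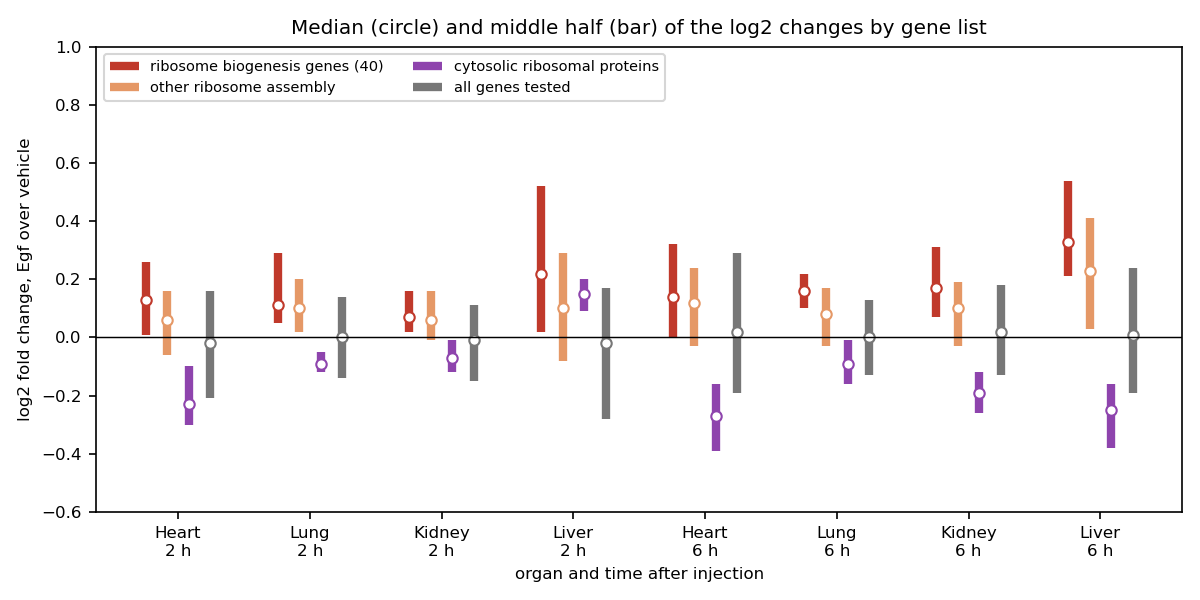
Median (circle) and interquartile range (bar) of the log2 fold changes of Egf over vehicle (vertical axis) by organ and time (horizontal axis) for the 40 ribosome biogenesis genes, 90 other ribosome assembly genes, the cytosolic ribosomal proteins and all genes tested. The 40 genes have medians from 0.07 to 0.33, and the ribosomal proteins lie below 0 in every organ and time but liver at 2 h, where their median is 0.15.

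The other genes of the pathway were read from lists written from general knowledge. Of 90 further ribosome assembly genes, 8 rose and none fell in liver at 2 h. They included Surf6 (log2 change 1.12 ± 0.17, edgeR adjusted p = 0.000578) and Sdad1 (1.01 ± 0.22, adjusted p = 0.00937), nucleolar factors, the GTPase Gtpbp4 (1.06 ± 0.19, adjusted p = 0.00282) and the kinase Nol9 (0.69 ± 0.16, adjusted p = 0.0154). Their median was 0.10 in liver at 2 h and 0.23 at 6 h, and none passed between Egf and vehicle at 6 h or in the other organs. None of 12 genes of the RNA polymerase I machinery outside the 40 passed between Egf and vehicle in any organ. In Egf livers, 4 of the 12 were higher at 6 h than at 2 h and 2 were lower, against 19.8% and 15.7% of all genes.

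None of the 78 cytosolic ribosomal protein genes tested passed between Egf and vehicle in any organ. Their median was 0.15 in liver at 2 h and -0.25 at 6 h, -0.23 and -0.27 in heart, -0.09 at both times in lung, and -0.07 and -0.19 in kidney. The 40 genes had medians of the opposite sign in each of these comparisons but liver at 2 h. In the other lists, 3 genes fell in liver at 2 h, where 1.97% of all genes fell. Of 12 genes tested of the Myc network, 1 fell, Mycl, a relative of Myc (-1.34 ± 0.28, edgeR adjusted p = 0.00803). Of 16 genes of translation initiation and nucleotide supply it was Ppat, the first enzyme of purine synthesis (-0.65 ± 0.13, adjusted p = 0.00585). Of 18 genes of the RNA polymerase III machinery it was Gtf3c4 (-0.55 ± 0.14, adjusted p = 0.0247).

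Myc itself did not pass in any organ. It had 3.46, 5.13, 5.22 and 4.69 CPM in Egf hearts at 2 h, against 1.72, 1.07 and 1.47 CPM in vehicle hearts, without overlap (log2 change 1.70 ± 0.46, edgeR adjusted p = 0.305). In lung it had 14.3, 11.1, 12.7 and 13.7 CPM in Egf lungs at 2 h, against 7.83, 8.79 and 8.21 CPM in vehicle lungs, also without overlap (0.65 ± 0.24, adjusted p = 0.391). In liver it had 3.18, 4.26, 3.4 and 5.78 CPM in Egf livers at 2 h, against 3.73, 1.06 and 3.91 CPM in vehicle livers, with overlap (0.53 ± 0.39, adjusted p = 0.609). At 6 h its change was -0.77 ± 0.37 in liver (adjusted p = 0.585), with 3.12, 2.41, 1.93 and 5.33 CPM in Egf livers against 4.4, 5.04 and 7.04 CPM in vehicle livers. In heart at 6 h it had 2.2, 2.12, 1.14 and 6.58 CPM in Egf hearts, against 1.76, 1.29 and 0.858 CPM in vehicle hearts, with overlap. The change of 1.21 ± 0.45 there was 0.48 without Egf replicate 4. In lung at 6 h it had 5.36, 7.32, 9.03 and 14.7 CPM in Egf lungs, against 5.23, 5.06 and 7.11 CPM in vehicle lungs, and the change of 0.65 ± 0.25 was 0.32 without Egf replicate 4. In kidney it was 0.48 ± 0.25 at 2 h, or 0.28 to 0.84 with 1 library left out, and 0.20 ± 0.25 at 6 h, or 0.04 to 0.54. In liver the range was 0.14 to 0.82 at 2 h, lowest without vehicle replicate 2, and -1.13 to -0.55 at 6 h.

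The levels of the 40 genes without any injection were compared among the untreated organs, with RPKM, the CPM divided by the length of the gene model in kilobases, as the scale and 3 libraries per organ from 3 mice, which the test treats as separate. Levels differed among organs for 28 of the 40 genes, against 90.5% of all genes tested (edgeR's quasi-likelihood F test, Benjamini-Hochberg adjusted). Per length, Npm1 was the most abundant of the 40 in every organ, from 33.5 ± 2.29 RPKM in lung to 41.1 ± 2.74 RPKM in liver (SD), and did not differ among organs (adjusted p = 0.0687). The level was highest in liver for 19 genes, in heart for 11, in lung for 5 and in kidney for 5, and it was lowest in lung for 20. The median level over the 40 genes was 4.69 RPKM in liver, 5.4 in heart, 4 in kidney and 3.78 in lung. In lung against liver, 1 gene was higher and 22 were lower, against 38.4% and 32.6% of all genes, with a median of -0.42 on the log2 scale.

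Single genes differed several-fold between organs. Pno1 had 27.4 ± 1.97 RPKM in untreated liver, 20.7 ± 0.516 in heart, 19.9 ± 0.961 in kidney and 6.39 ± 0.813 in lung (adjusted p = 1.27e-20 by the edgeR F test), so that lung lay far below the other organs, and heart and kidney lay within their spread of each other. Nop16, a large subunit factor, had 15.7 ± 0.964 RPKM in liver, 8.49 ± 0.607 in kidney, 7.38 ± 0.397 in heart and 4.86 ± 0.428 in lung (adjusted p = 1.7e-16). Heatr1 ran the other way, with 3.42 ± 0.457 RPKM in lung, 2.84 ± 0.524 in liver, 2.18 ± 0.187 in kidney and 1.55 ± 0.0274 in heart (adjusted p = 3.32e-07). Nop58, the gene with the smallest p after Egf in liver, was at 1.57 ± 0.191 RPKM in liver, 1.52 ± 0.173 in heart, 1.30 ± 0.134 in lung and 1.26 ± 0.0776 in kidney, and these levels did not pass as different (adjusted p = 0.157). All 3 untreated hearts carried markers of another organ.

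**Figure D5:**
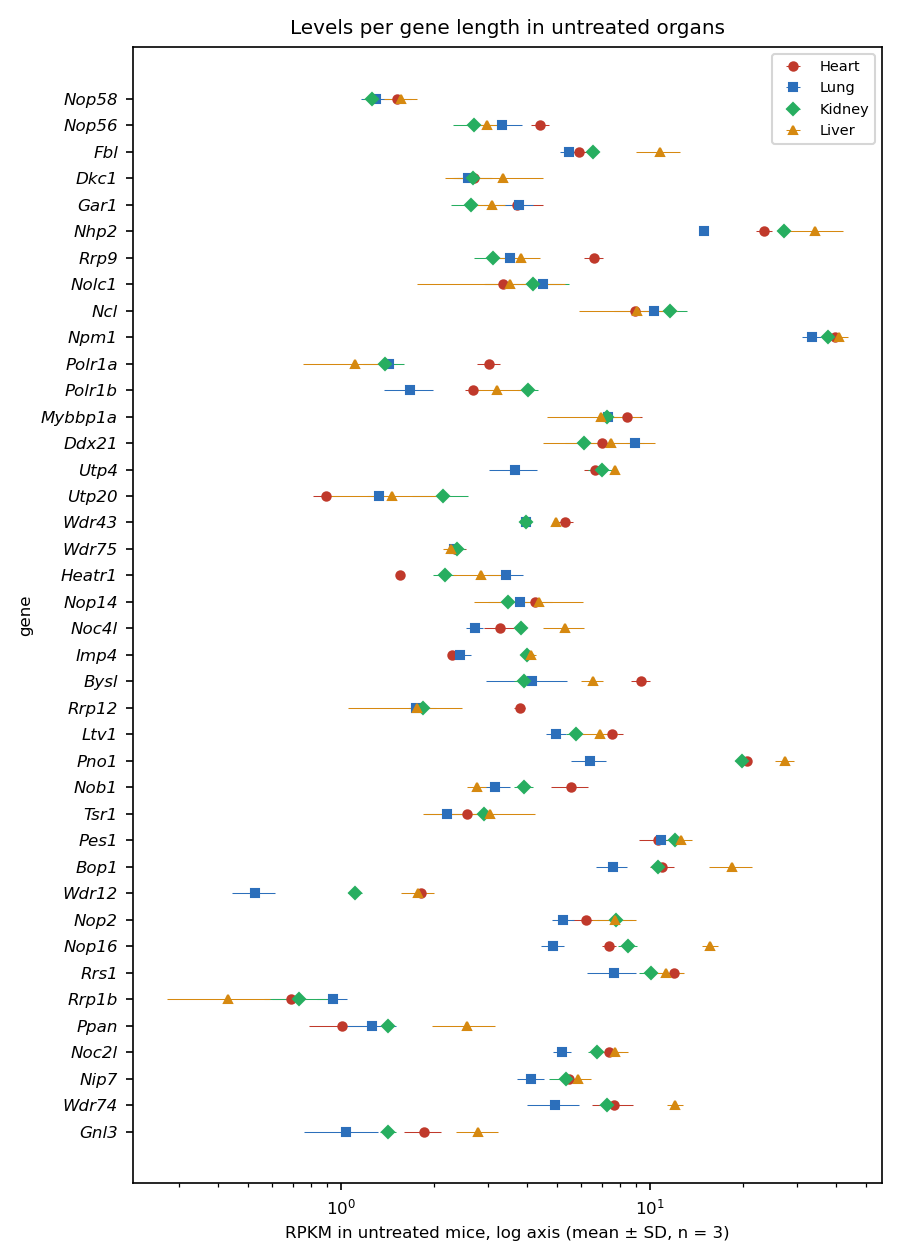
Level per gene length in RPKM (horizontal log axis; mean and SD of 3 libraries) of the 40 genes (vertical axis) in untreated heart, lung, kidney and liver. Npm1 and Nhp2 are the highest, and Pno1 in lung lies well below its level in the other organs.

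Joint variation was measured within groups. The median Pearson correlation between pairs of them over the 17 libraries of an organ, after removing group means, was highest in liver at 0.26, then 0.24 for lung, 0.22 for kidney and 0.12 for heart. For the ribosomal proteins it was 0.9 in liver, 0.96 for lung, 0.94 for kidney and 0.9 for heart, and for the other ribosome assembly genes 0.13 in liver, 0.11 for lung, 0.15 for kidney and 0.08 for heart. The genes that moved most with the rest were Nop58 in heart and liver (0.44 and 0.49), Nop56 in lung (0.49) and Tsr1 in kidney (0.65). Nhp2 and Npm1 were among those that moved against the rest, with -0.61 for Nhp2 in kidney and -0.32 for Npm1 in lung. These values describe shared variation, which depth and RNA quality of a library can also carry.

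The mean log2 level of the 40 genes in a library sums up the size of these differences. In liver it was 4.14 ± 0.11 (SD, n = 4) in Egf livers at 2 h and 3.92 ± 0.12 (n = 3) in vehicle livers, 4.30 ± 0.09 (n = 4) in Egf livers and 4.00 ± 0.16 (n = 3) in vehicle livers at 6 h, and 3.91 ± 0.12 (n = 3) in untreated livers. At 6 h every Egf liver lay above every vehicle liver, with 4.20 to 4.39 in Egf livers against 3.85 to 4.17 in vehicle livers, whereas at 2 h the ranges of 3.99 to 4.25 in Egf livers and 3.82 to 4.05 in vehicle livers overlapped. The other organs had the same numbers of libraries. In lung it was 4.83 ± 0.01 in Egf and 4.68 ± 0.02 in vehicle lungs at 2 h, and 4.64 ± 0.10 in Egf and 4.49 ± 0.11 in vehicle lungs at 6 h. In heart it was 4.37 ± 0.02 in Egf and 4.24 ± 0.12 in vehicle hearts at 2 h, and 4.39 ± 0.03 in Egf and 4.24 ± 0.08 in vehicle hearts at 6 h. The ranges did not overlap in lung at 2 h (4.81 to 4.85 in Egf and 4.65 to 4.70 in vehicle lungs), in heart at 2 h (4.35 to 4.39 in Egf and 4.11 to 4.34 in vehicle hearts) or in heart at 6 h (4.35 to 4.42 in Egf and 4.14 to 4.30 in vehicle hearts), and overlapped in lung at 6 h. In kidney, where they overlapped at both times, it was 4.64 ± 0.17 in Egf and 4.58 ± 0.06 in vehicle kidneys at 2 h, and 4.64 ± 0.07 in Egf and 4.48 ± 0.12 in vehicle kidneys at 6 h.

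Some members share their locus with another gene. Of the 40, 20 lay clear of every other gene with reads in the count table, and among the 6 genes that rose in liver at 2 h Ppan, Nip7 and Utp4 did so. Bysl overlaps Ccnd3 and Gnl3 overlaps Pbrm1 on the opposite strand. The other gene had 381 and 346 reads per 100 reads of the member. Rrp9 overlaps Parp3 and Heatr1 overlaps Lgals8 on the opposite strand as well, with 134 and 215 reads per 100 reads of the member. For Dkc1, Tsr1 and Mybbp1a the most abundant overlapping gene had 655, 310 and 199. Since the libraries do not keep the strand, reads of such pairs cannot be told apart where they overlap.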

How the data were processed

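The 68 libraries of polyadenylated RNA were prepared without keeping the strand, per the labels' protocols. HISAT2 2.0.5, featureCounts 1.5.0-p3 and build mm39 are named in the submitters' processing notes. Which annotation and options were used is not stated there. The deposited table holds whole-number counts of reads per gene that the authors did not normalize, with 13271813 to 24972005 counted reads per library. Precision is set by this depth and by the 3 or 4 libraries of a group.

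Groups were taken from the sample titles. In each organ 17 libraries of 5 groups entered 1 edgeR 4.0.16 fit in R 4.3.3 (filterByExpr, TMM scaling, robust quasi-likelihood F tests), with the Benjamini-Hochberg adjustment across every gene of that fit and a threshold of 0.05. These were 13592 genes for liver, 16778 for lung, 15618 for heart and 15654 for kidney. The comparisons of organs used 1 fit of 68 libraries with 18736 genes. CPM and RPKM were computed from the counts with the scaled library sizes, and the mean log2 level of the 40 genes used a pseudocount of 2 CPM. The procedure was tested on simulated counts. DESeq2 1.42.0, other scaling, no filter, fewer samples, a replicate block, a hepatocyte covariate and leaving out libraries were tried as alternatives.

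The 40 genes, the other lists and the tests were chosen with earlier results of these data known. The text names every called member up to 12 in each direction. Where fewer than 3 were called it names the 3 with the smallest p, and it always gives Myc. Npm1, Ncl and Polr1a in liver at 2 h, the genes shown for their untreated levels, their joint variation or their shared loci, and Ppan and Nip7 in liver at 6 h were named after their values were seen. Promoters came from RefSeq on GRCm38.p6, and no coordinates were converted between builds. Whether same-numbered libraries share a mouse is not stated.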

Additional observations from a re-analysis of the deposited data

Results flagged for a closer look

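The CPM of the members named for Egf against vehicle, and the mean log2 level of the 40 genes, were searched for 1 library far from the other 3. This made 35 sets of 4 values, taken repeatedly from the same Egf groups and so not independent. Such a library was found in 2 sets, where chance gives about 1 in 20 sets. Ddx21 had 32 CPM in Egf heart 2 h replicate 2, against 36.2 to 36.6 CPM in the other 3. Nop2 had 23.5 CPM in Egf lung 6 h replicate 4, against 21 to 21.4 CPM in the other 3. Neither gene passed between Egf and vehicle in these comparisons.

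The change after Egf at 2 h differed between the organs for 4 of the 40 genes, by edgeR's F test over 68 libraries with Benjamini-Hochberg adjustment. The adjusted p was 0.00121 for Rrp9, 0.00931 for Nop58, 0.0362 for Ppan and 0.0425 for Nip7, and in each the change was highest in liver. The organs also differ in the spread between their libraries, with a biological coefficient of variation of 0.224 in liver, 0.389 in heart, 0.283 in lung and 0.192 in kidney, while the fit takes 1 value per gene. The part of this in the result was not tested.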

How the results depend on the processing

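No called result changed direction. In liver at 2 h the 6 calls became 7 with DESeq2 and with only the groups compared, 5 without a filter, and 4 to 6 with 1 library left out. At 6 h in liver DESeq2 called 1 and leaving out 1 library 0 to 1. For the effect at 6 h minus 2 h in liver, leaving out 1 library gave 0 to 1 calls and a median of -0.05 to 0.24, against 0.08. DESeq2 called 2 between vehicle livers of the 2 times, and the median of vehicle at 2 h over untreated was -0.10 to 0.07 with 1 library left out, against 0.03. The 7 calls between Egf lungs of the 2 times became 3 without a filter, 4 without the library carrying another organ, 11 with DESeq2 and 3 to 6 with 1 library left out. In lung at 2 h DESeq2 called 3, and the median of 0.11 was 0.08 with the hepatocyte covariate and 0.10 to 0.15 with 1 library left out. For the effect at 6 h minus 2 h in lung it was -0.07 to 0.06, against 0.03. The call between vehicle lungs of the 2 times was lost (0) with only the groups compared, and was 0 to 1 with 1 library left out. For vehicle at 6 h over untreated lung, DESeq2 called 1 and leaving out 1 library 0 to 1. The call between Egf kidneys of the 2 times became 3 with RLE scaling, 4 with DESeq2, 0 without a filter, with the covariate or with only the groups compared, and 0 to 3 with 1 library left out. In kidney at 2 h leaving out 1 library gave 0 to 1. Between Egf hearts of the 2 times the median was -0.05 to 0 with 1 library left out, against -0.01. The 4 calls among organs at 2 h became 2 without a filter and 7 with DESeq2. The cause of these changes was not tested. Of 637 values of single members under another setting, 602 kept their direction and stayed called or stayed not called. Most of these members were not called in the main fit, so this is not a count of calls kept.

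Same-numbered libraries of Egf and vehicle deviated together (Pearson r over 0.1) in 8 of 24 pairs, with r from -0.68 to 0.62, so the numbers were not read as pairs. With the replicate block, 1 gene, Nip7, passed for the effect at 6 h minus 2 h in liver, against 0 without it, and the 6 calls in liver at 2 h stayed 6. The ranges of Myc with 1 library left out were chosen after seeing the data. Leaving out 1 library was not run in the fit of 68 libraries, and the heart comparisons with untreated mice have no value without the libraries carrying another organ, since all untreated hearts go. The 3 or 4 libraries of a group limit the size of change that can be called.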
